A study of Mus musculus with 7 samples.

Results

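The ADAMTS proteases are secreted metalloproteases, and 10 of their genes were followed here in infarcted and sham-operated mouse hearts: Adamts1, Adamts2, Adamts4, Adamts5, Adamts7, Adamts8, Adamts9, Adamts12, Adamts14 and Adamts15. They were chosen by name and are not the whole family, of which 9 further genes were in the table, and they make up 10 of the 56980 mouse genes in the deposited expression table. Total RNA of myocardial tissue was sequenced in 7 wild-type male C57BL/6J mice, a common inbred strain, obtained at 8 weeks of age. The left coronary artery was ligated in 3 of them (MI mice), and their hearts were collected 4 days later. The other 4 mice had the same surgery without the ligation (sham-operated mice). Each mouse gave 1 library, and nothing in the labels ties a mouse of one group to a mouse of the other.

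Every ADAMTS protease carries a catalytic domain that binds zinc, followed by thrombospondin type 1 repeats that hold the enzyme to the extracellular matrix. Their known substrates divide them into groups. The proteoglycanases cut versican, aggrecan and related proteoglycans, the procollagen N-proteinases remove the amino-terminal propeptide of fibrillar procollagens so that collagen fibrils can form, and the others considered here are known for cutting cartilage oligomeric matrix protein. TIMP3 is the best known inhibitor of several members, and the receptor LRP1 takes some of them up from the matrix. In a healing infarct the matrix is taken apart and laid down again, which is where these enzymes have drawn interest.

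The sequences that make these proteins proteases are short, and 3 pairs of them are shown because the same pairs are compared below by their levels. Each line gives the 33 coding bases of the zinc-binding site, from GENCODE M21 transcripts on GRCm38, and the capitals mark the codons of the 3 zinc-binding histidines and of the catalytic glutamate.
Adamts2: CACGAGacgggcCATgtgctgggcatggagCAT
Adamts14: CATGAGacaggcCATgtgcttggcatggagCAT
Adamts7: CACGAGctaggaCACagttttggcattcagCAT
Adamts12: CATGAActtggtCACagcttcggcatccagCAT
Adamts4: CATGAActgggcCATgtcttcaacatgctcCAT
Adamts5: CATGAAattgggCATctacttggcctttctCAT
Adamts2 and Adamts14 shared 30 of these 33 bases (90.9%), Adamts7 and Adamts12 shared 26 (78.8%), and Adamts4 and Adamts5 shared 19 (57.6%). The site was found once in each of the 10 members and was split over 2 neighbouring exons in all of them, exons 7 and 8 in Adamts2, Adamts7, Adamts12 and Adamts14, exons 3 and 4 in Adamts4 and exons 2 and 3 in Adamts5. In Adamts2 it ran from chr11:50775403-50776134 on the plus strand of GRCm38, with the intron between its pieces. Over all 45 pairs of members the identity ranged from 51.5% to 90.9%.

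The members lie on chromosomes 1, 6, 9, 10, 11, 15 and 16. Adamts1 (chr16:85793827-85803113, minus strand) and Adamts5 (chr16:85856173-85901828, minus strand) are neighbours 53.1 kb apart, with 1 annotated gene between them. Adamts8 (chr9:30942562-30963838, plus strand) and Adamts15 (chr9:30899155-30922452, minus strand) lie 20.1 kb apart with 0 genes between them. Exons of Adamts7, Adamts8 and Adamts9 overlap exons of genes on the opposite strand, over 122 bases with Tbc1d2b in Adamts7. In Adamts8 489 bases overlap Gm29724, and in Adamts9 1381 bases overlap A730049H05Rik and 424 bases overlap Gm15737. Whether the counting used the strand is not given in the sources used here, so the values of these 3 members may hold reads of their antisense neighbours.

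Expression is given as FPKM, the fragments counted on a gene scaled by the length of the gene and by the fragments of the library. Depth, recovered from the smallest steps of the values, was 19977713 to 23610870 fragments per library. Before any group is compared, 1 library has to be set apart. Over the tested genes, MI replicate 2 correlated with the sham-operated mice at a Pearson r of 0.984 to 0.987 on log2(FPKM + 1), near the 0.989 to 0.992 among the sham-operated mice themselves, whereas MI replicates 1 and 3 correlated with them at 0.878 to 0.881 and at 0.903 to 0.906. Its summed level of 8 macrophage markers was 237 FPKM, inside the sham range of 197 to 250, against 1315 and 1133 in MI replicates 1 and 3. Its 7 cardiomyocyte markers summed to 12240 FPKM, also inside the sham range of 12160 to 13320, against 8340 and 8742. The library labelled MI replicate 2 is kept in every main value below, and the members' tests and changes are also given without it. Values without it rest on MI replicates 1 and 3 alone in the MI group. The mouse was set apart by the same expression values that are tested, so p-values without it are a description and not independent evidence. Not every list put that mouse with the sham-operated ones: 6 mesothelial and epicardial markers summed to 20.9 FPKM in it, against 4.16 to 9.69 in the sham-operated mice and 29.4 and 43.5 in MI replicates 1 and 3, with Msln at 5.32 against 0.556 to 1.96. The high cardiomyocyte markers fit the labelled tissue, and 3 atrial markers (Myl7, Sln and Myl4) stayed under 1 FPKM in every mouse, while Nppa, an atrial gene that injured ventricle also expresses, reached 7940 and 8125 FPKM in MI replicates 1 and 3 against 69.7 to 185 in the sham-operated mice.

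In the sham-operated heart the 10 genes lay far apart. Adamts1 was the highest at 10.02 ± 0.475 FPKM (SD, n = 4), and it alone made up 45.4% ± 2.17 of the summed level of all members. Adamts2 followed at 3.45 ± 0.365, then Adamts7 at 2.42 ± 0.275, Adamts5 at 2.38 ± 0.349 and Adamts9 at 1.85 ± 0.297. Adamts15 stood at 0.876 ± 0.227, Adamts14 at 0.523 ± 0.0848, Adamts12 at 0.273 ± 0.0580, Adamts8 at 0.191 ± 0.0255 and Adamts4, an aggrecanase best known from cartilage, at 0.101 ± 0.0251. The ranges of Adamts7 and Adamts5, of Adamts5 and Adamts9, and of Adamts12 and Adamts8 overlapped, so these neighbours in the order were not separated by their spread, and all other neighbours were. The order depends on the gene lengths behind the deposited values, which were longer than the GENCODE M21 exons for 9 of the 10 members. Per kilobase of those exons Adamts7 came to 4.46 ± 0.507 and stood second, above Adamts2 at 3.56 ± 0.376, with overlapping ranges, because its length was 1.84 times that of its annotated exons. FPKM ratios between mice within a gene do not depend on the length, whereas differences of log2(FPKM + 1), and the shares of the summed level, do.

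**Figure D1:**
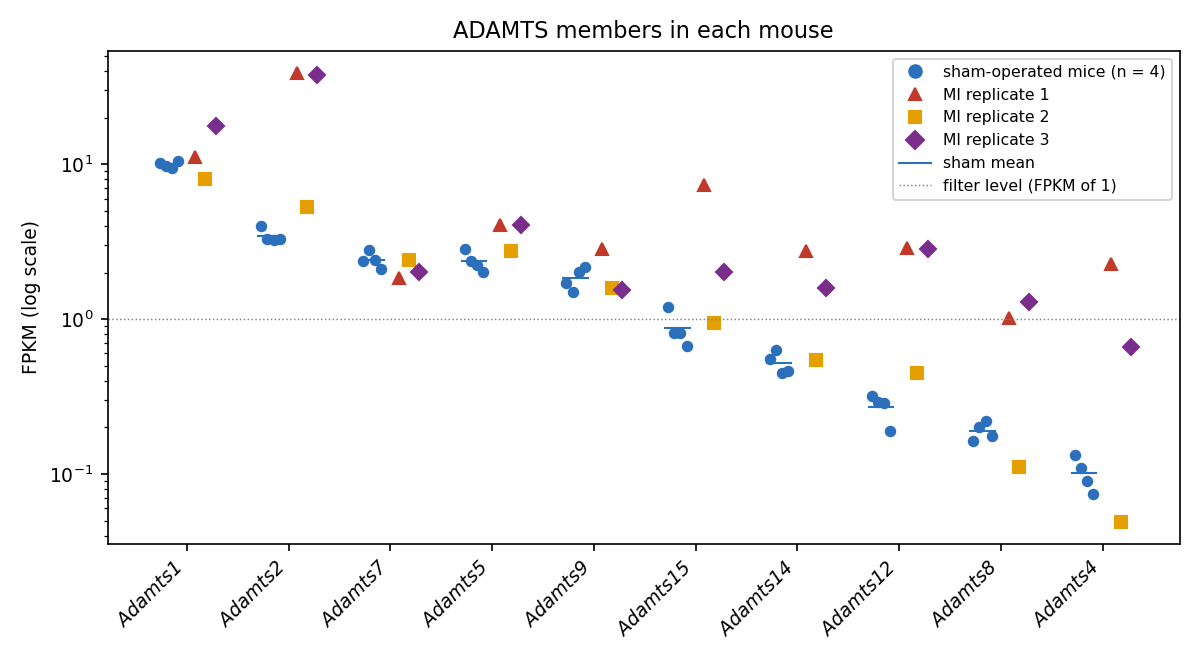
FPKM of each ADAMTS member (log axis) in the 4 sham-operated mice (circles, with their mean as a line) and in MI replicates 1 to 3 (triangle, square, diamond), ordered by the sham mean. MI replicates 1 and 3 lie above all sham-operated mice for 8 of the 10 genes, and MI replicate 2 lies inside the sham range for 5.

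Taken as a group, the members were mostly higher in MI replicates 1 and 3 and close to sham in MI replicate 2. Both MI replicates 1 and 3 lay above all 4 sham-operated mice for 8 of the 10 members, against 43.4% of all genes above 0 in any mouse. Among the 6 members that passed the filter on low values described below it was 4, against 61.9%. The exceptions were Adamts7, where both lay below, and Adamts9, where only MI replicate 1 lay above. With MI replicate 2 included, all 3 MI mice lay above all sham-operated mice for 2 of 10 members, Adamts2 and Adamts12, against 12.0% of the genes above 0. None was below sham in all 3 MI mice, as 4.34% of the genes were. MI replicate 2 was inside the sham range for 5 members (Adamts5, Adamts7, Adamts9, Adamts14 and Adamts15), against 63.3% of the genes above 0 and 49.4% of those past the filter, and below it for Adamts1, Adamts4 and Adamts8.

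The test across all genes was limma on log2(FPKM + 1), over the 11431 genes that reached an FPKM of 1 in 3 or more mice, with Benjamini-Hochberg adjustment. Of the 10 members 6 passed this filter (Adamts1, Adamts2, Adamts5, Adamts7, Adamts9 and Adamts15). Adamts15 reached an FPKM of 1 only in sham replicate 1 and MI replicates 1 and 3. Its place among the 6 thus depends on its high MI values, in every count of members past the filter. At an adjusted p under 0.05, 0 of these 6 were called higher, against 0.0175% of all tested genes, and 0 lower, against 0.00875%. At an unadjusted p under 0.05, 2 of 6 were higher, Adamts2 and Adamts5, against 29.5%, and 0 lower, against 9.85%, so that the members' share was near the background. The 4 members under the filter were taken from a fit of all 30504 genes above 0, in which 4 of 10 members passed an unadjusted p of 0.05 (Adamts2, Adamts5, Adamts12 and Adamts14, against 20.6%) and 0 an adjusted one (against 0.0656%). None of the 10 was lower at an unadjusted p under 0.05 in that fit, as 4.77% of genes were. Without MI replicate 2, 4 of 6 members were higher at an adjusted p under 0.05, namely Adamts1, Adamts2, Adamts5 and Adamts15, against 57.0% of tested genes. In the unfiltered fit without that mouse it was 7 of 10, all but Adamts1, Adamts7 and Adamts9, against 35.8%.

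Log2 fold changes below are differences of log2(FPKM + 1), which understates the change of genes near or under an FPKM of 1. With a pseudocount of 0.1 in place of 1 the 4 members under the filter had larger values, 2.20 for Adamts12, 1.68 for Adamts4, 1.26 for Adamts8 and 1.23 for Adamts14. The median was 0.62 over the 10 members, 0.21 over all tested genes and 0.06 over all genes above 0. Without MI replicate 2 these medians were 0.94, 0.33 and 0.09. By mouse, the members' median change from the sham mean was 1.03 in MI replicate 1, 0.01 in MI replicate 2 and 0.73 in MI replicate 3, beside 0.36, -0.02 and 0.30 over all tested genes. The 35 ways to split 7 mice into 3 and 4 allow no exact two-sided permutation p below 0.0571, so no single member could pass 0.05 in that test.

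**Figure D2:**
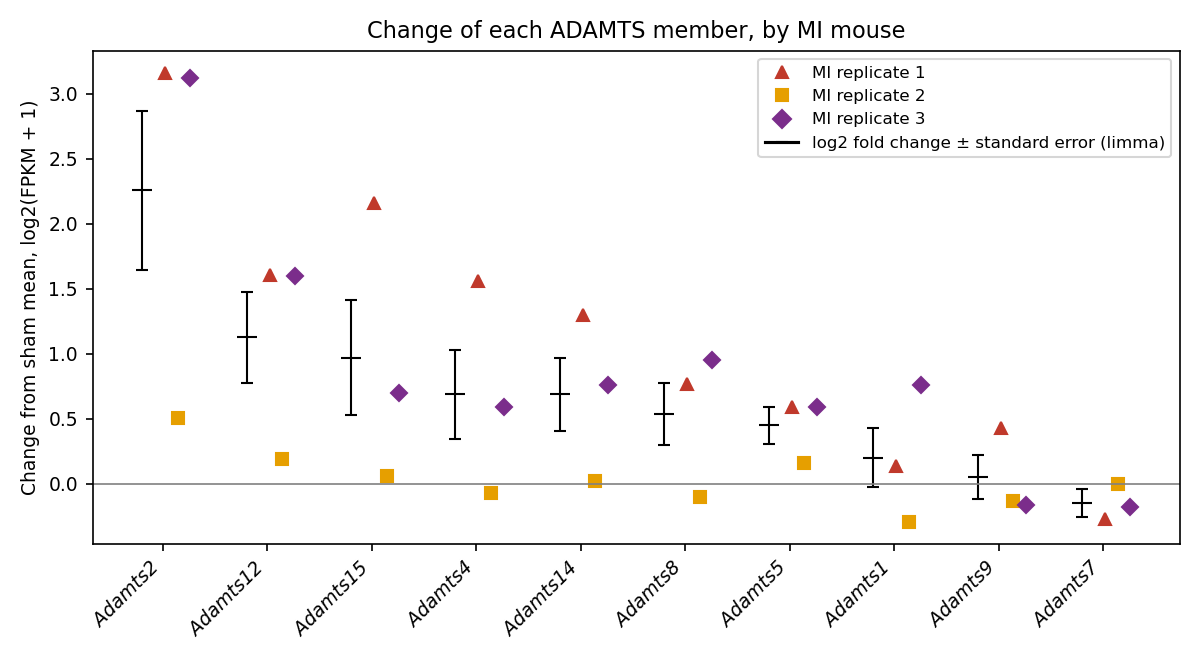
Change of each ADAMTS member from the sham mean on the log2(FPKM + 1) scale in each MI mouse (triangle, square, diamond for replicates 1 to 3), with the limma log2 fold change and its standard error as a black bar, ordered by that fold change. Adamts2 has the largest change at 2.26, and MI replicate 2 lies nearest to 0 for all genes but Adamts1.

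Adamts2 and Adamts14 are procollagen N-proteinases, which trim the propeptide of type I, II and III procollagen. Adamts2 (chr11:50602084-50807573, plus strand) measured 4.00, 3.28, 3.22 and 3.31 FPKM in sham replicates 1 to 4 and 38.7, 5.32 and 37.5 FPKM in MI replicates 1 to 3. The groups did not overlap, MI replicates 1 and 3 stood 11.2 and 10.9 times above the sham mean and MI replicate 2 stood 1.54 times above it. These values rest on 636 to 863 fragments in the sham-operated mice and on 8117, 1158 and 8524 in the MI mice. Adamts2 had a log2 fold change of 2.26 (SE 0.612, limma adjusted p = 0.108), and the exact permutation p was 0.0571, the smallest possible. Without MI replicate 2 it was 3.14 (SE 0.0828, limma adjusted p = 8.58e-07).

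Adamts2 was above Adamts1 and thus the highest member in MI replicates 1 and 3, and it went from 15.6% ± 0.924 (SD, n = 4) of the members' summed FPKM in the sham-operated mice to 51.7% and 52.7% there. In MI replicate 2 it held 24.0%, above the sham range of 15.1% to 17.0%. The sum over the 10 members was 21.2 to 23.5 FPKM in the sham-operated mice, 74.9 in MI replicate 1, 22.2 in MI replicate 2 and 71.2 in MI replicate 3. Adamts1 made up 14.9% and 24.8% of the sum in MI replicates 1 and 3, while its own level was not below sham in either. The plot of summed levels shows that most of the added level in these mice was Adamts2.

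**Figure D3:**
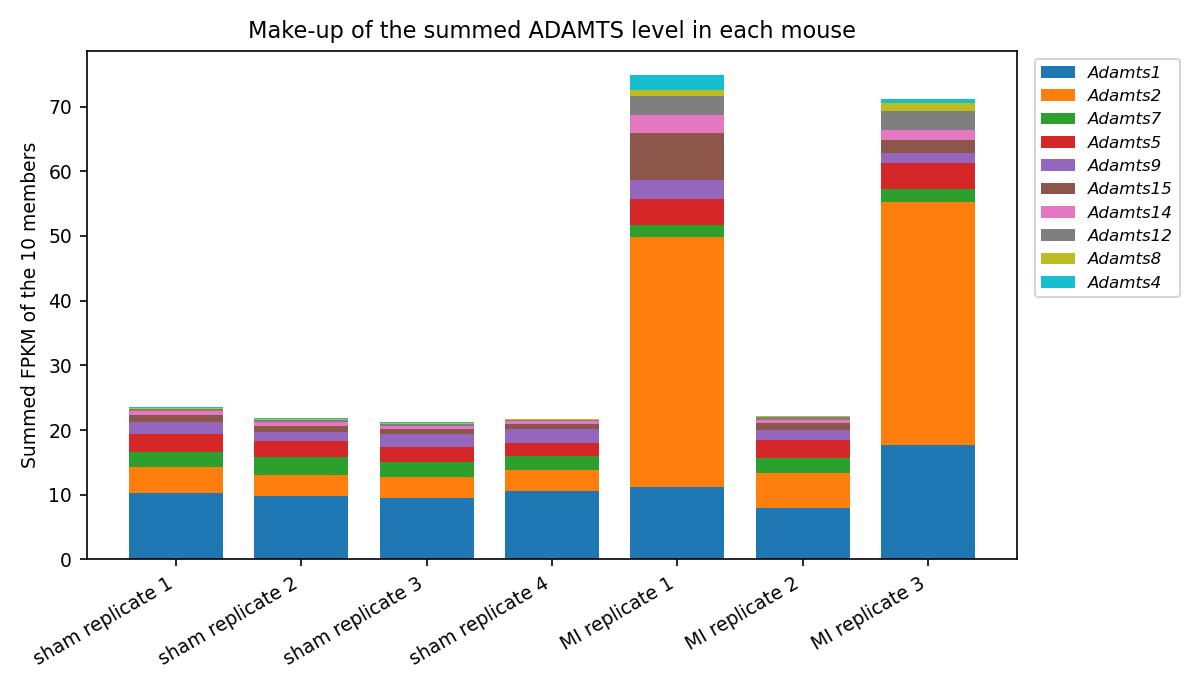
Summed FPKM of the 10 ADAMTS members in each mouse, stacked by gene in the order of the sham mean. The sum is 21.2 to 23.5 in the sham-operated mice and 22.2 in MI replicate 2, and 74.9 and 71.2 in MI replicates 1 and 3, where Adamts2 makes up 51.7% and 52.7%.

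Adamts14 measured 0.549, 0.630, 0.446 and 0.465 FPKM in sham replicates 1 to 4 and 2.74, 0.544 and 1.58 in MI replicates 1 to 3. MI replicates 1 and 3 lay above all sham-operated mice and MI replicate 2 lay among them. The log2 fold change was 0.69 (SE 0.280, limma adjusted p = 0.192 without the filter), the exact permutation p was 0.171, and without MI replicate 2 the log2 fold change was 1.03 (limma adjusted p = 0.00458). Without MI replicate 1 it was 0.39. Within each mouse the log2 difference of Adamts2 over Adamts14 was 1.39 to 1.69 in the sham-operated mice and 3.41, 2.03 and 3.90 in the MI mice, without overlap. This pair of genes, alike in 90.9% of the site shown above, thus differed in its change by 1.57 (exact permutation p = 0.0571, adjusted over 7 pairs 0.2), and by 2.11 without MI replicate 2. The difference was 1.26 with a pseudocount of 0.1 and 1.17 without MI replicate 3. Adamts3, the other known N-proteinase, was at 0.941 to 0.991 FPKM in the sham-operated mice and at 1.54, 0.861 and 1.09 in the MI mice.

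The procollagens that these enzymes trim were measured in the same hearts. Of 6 procollagen genes 5 passed the filter, and all 5 had an unadjusted limma p under 0.05, upwards, with 0 at an adjusted p under 0.05 and 5 without MI replicate 2. Col1a1 measured 17.1 to 23.0 FPKM in the sham-operated mice and 768, 40.5 and 569 in MI replicates 1 to 3. Col3a1 measured 24.7 to 35.3 FPKM in the former and 830, 67.0 and 575 in the latter. Bmp1, which removes the propeptide at the other end of procollagen, had 3.70 to 3.92 FPKM in the sham-operated mice and 26.2, 4.51 and 20.5 in the MI mice. The median log2 fold change of the procollagens was 3.12, above the 2.26 of Adamts2, and MI replicate 2 was above all sham-operated mice for 4 of the 6.

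Fibroblasts are a known source of these collagens and of ADAMTS2. Of 7 fibroblast markers 6 were higher in both MI replicates 1 and 3 than in every sham-operated mouse, and the markers summed to 580 and 621 FPKM there, to 392.3 in MI replicate 2 and to 289 to 342 in the sham-operated mice. The 5 activated fibroblast markers summed to 431, 59.0 and 443 FPKM in MI replicates 1 to 3 and to 51.4 to 79.0 in the sham-operated mice. Most of the sham sum was Acta2, at 46.8 to 74.0 FPKM against 120.7, 45.4 and 161.6 in MI replicates 1 to 3. The other 4 markers were above all sham-operated mice in every MI mouse, with Cthrc1 at 78.1, 1.40 and 64.5 against 0.0188 to 0.102. None of these markers was at 0 in all mice. The part of cell numbers in the Adamts2 values was not tested, and in bulk tissue more cells of a type and more RNA per cell cannot be told apart, which holds for every result here.

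Adamts7 and Adamts12 are known for cutting cartilage oligomeric matrix protein, and their proteins share a mucin-like region. Adamts12 (chr15:11064790-11349231, plus strand) measured 0.321, 0.293, 0.289 and 0.188 FPKM in sham replicates 1 to 4 and 2.90, 0.447 and 2.85 in MI replicates 1 to 3. Here too every MI mouse lay above every sham-operated mouse. MI replicates 1 and 3 had nearly the same level, at a ratio of 1.02 (95% exact counting interval 0.919 to 1.12), and MI replicate 2 stood 1.63 times above the pooled sham level (interval 1.303 to 2.02). For Adamts12 the log2 fold change was 1.13 (SE 0.350, limma adjusted p = 0.188 without the filter), the exact permutation p was 0.0571, and without MI replicate 2 the log2 fold change was 1.61 (limma adjusted p = 8.97e-05).

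Adamts7 measured 2.36, 2.79, 2.40 and 2.12 FPKM in sham replicates 1 to 4 and 1.83, 2.41 and 2.00 in MI replicates 1 to 3. It was the one member with MI replicates 1 and 3 below all sham-operated mice, which 16.9% of the tested genes also showed, and MI replicate 2 lay inside the sham range. The log2 fold change was -0.15 (SE 0.108, limma adjusted p = 0.296), the exact permutation p was 0.229, and without MI replicate 2 the log2 fold change was -0.23 (limma adjusted p = 0.0524). It was -0.09 without MI replicate 1, -0.02 on values rescaled to TPM and -0.39 with quantile normalization. Within each mouse Adamts7 exceeded Adamts12 by 1.35 to 1.55 on the log2(FPKM + 1) scale in the sham-operated mice and by 1.24 in MI replicate 2. In MI replicates 1 and 3 the difference was -0.46 and -0.36, on the deposited values, and which gene of the pair is the higher depends on their lengths. The change of -1.28 had an exact permutation p of 0.0571 (adjusted over 7 pairs 0.2), with no overlap between the groups. It was -1.83 without MI replicate 2 and -2.40 with a pseudocount of 0.1.

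Comp, the gene of the substrate these enzymes share, was at 0.353 to 0.487 FPKM in the sham-operated mice and at 109, 0.932 and 97.4 in MI replicates 1 to 3. It did not pass the filter, since only 2 mice reached an FPKM of 1, and all 3 MI mice were above all sham-operated mice.

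The remaining members are known as proteoglycanases. Adamts1, whose gene is known to be induced quickly by inflammatory signals and whose enzyme cuts versican and aggrecan, measured 10.2, 9.78, 9.50 and 10.6 FPKM in sham replicates 1 to 4 and 11.2, 7.99 and 17.7 in MI replicates 1 to 3. The 3 MI mice fell on both sides of the narrow sham range, with MI replicate 2 below it and MI replicates 1 and 3 above it. On average the MI mice differed from sham by a log2 fold change of 0.20 (SE 0.227, limma adjusted p = 0.488), close to the median of 0.21 over all tested genes, and the exact permutation p was 0.629. Its sign was not stable: scaling by the median log-ratio or by quantiles gave -0.05, and without MI replicate 2 the log2 fold change was 0.45 (limma adjusted p = 0.0354). Without MI replicate 3 it was -0.08. MI replicate 1 had 0.631 times the level of MI replicate 3 (95% counting interval 0.592 to 0.672, from 1535 and 2639 fragments).

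Adamts5, the main aggrecanase of mouse cartilage, measured 2.85, 2.39, 2.25 and 2.02 FPKM in sham replicates 1 to 4 and 4.05, 2.76 and 4.06 in MI replicates 1 to 3. MI replicates 1 and 3 had nearly the same level (ratio 0.997, 95% counting interval 0.912 to 1.09), and MI replicate 2 lay inside the sham range. Adamts5 had a log2 fold change of 0.45 (SE 0.143, limma adjusted p = 0.108), the exact permutation p was 0.114, and without MI replicate 2 the log2 fold change was 0.59 (limma adjusted p = 0.00155). Adamts5 no longer passed an unadjusted limma p of 0.05 with quantile normalization (0.17), with MI replicate 1 left out (0.37) or with MI replicate 3 left out (0.37), and median log-ratio scaling gave 0.24. Adamts1 exceeded its chromosomal neighbour Adamts5 by 1.55 to 1.94 in the sham-operated mice and by 1.27, 1.26 and 1.89 in the MI mice, a change of -0.24 (exact permutation p = 0.229, adjusted over 7 pairs 0.533) with overlapping groups, and of -0.13 without MI replicate 2 and -0.45 without MI replicate 3.

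Adamts4 had the lowest level in the sham-operated heart. It measured 0.133, 0.109, 0.0898 and 0.0745 FPKM in sham replicates 1 to 4, from 12 to 24 fragments, and 2.25, 0.0493 and 0.656 FPKM in MI replicates 1 to 3, from 396, 9 and 125 fragments. MI replicate 1 stood 22.2 times above the sham mean and MI replicate 3 stood 6.47 times above it, while MI replicate 2 was below every sham-operated mouse. The log2 fold change was 0.69 (SE 0.344, limma adjusted p = 0.240 without the filter), the exact permutation p was 0.286, and without MI replicate 2 the log2 fold change was 1.08 (limma adjusted p = 0.0233). Without MI replicate 1 it was 0.26. The difference between Adamts4 and Adamts5 changed by 0.25 (exact permutation p = 0.743, adjusted over 7 pairs 0.867), by -0.12 without MI replicate 1 and by 0.49 without MI replicate 2. With a pseudocount of 0.1 this change was 1.11 (exact permutation p = 0.286), so its size depends on the scale.

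Adamts15, which also cuts versican, measured 1.202, 0.817, 0.811 and 0.675 FPKM in sham replicates 1 to 4 and 7.37, 0.945 and 2.03 in MI replicates 1 to 3. Its MI level was set mainly by 1 mouse, with MI replicate 1 at 8.41 times the sham mean and MI replicate 3 at 2.32 times. For Adamts15 the log2 fold change was 0.97 (SE 0.444, limma adjusted p = 0.139), the exact permutation p was 0.114, and without MI replicate 2 the log2 fold change was 1.43 (limma adjusted p = 0.00989). Without MI replicate 1 it was 0.38.

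Adamts8, the gene next to Adamts15 and a protease noted for an antiangiogenic action, measured 0.164, 0.201, 0.221 and 0.176 FPKM in sham replicates 1 to 4 and 1.02, 0.111 and 1.299 in MI replicates 1 to 3. As with Adamts4, MI replicate 2 was the lowest of all mice and the other MI mice the highest. The log2 fold change was 0.54 (SE 0.238, limma adjusted p = 0.208 without the filter), the exact permutation p was 0.286, and without MI replicate 2 the log2 fold change was 0.86 (limma adjusted p = 0.000442). Without MI replicate 3 it was 0.33. Adamts8 and Adamts15 stood in a different order in the MI mice: MI replicate 3 was the higher for Adamts8 and MI replicate 1 for Adamts15. Their within-mouse difference was -2.05 in MI replicate 1 and -0.40 in MI replicate 3, against -0.92 to -0.51 in the sham-operated mice (change -0.44, exact permutation p = 0.514, adjusted over 7 pairs 0.720). This change was -0.57 without MI replicate 2 and 0.05 without MI replicate 1.

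Adamts9, which cuts versican and takes part in development and ciliogenesis, measured 1.72, 1.51, 2.00 and 2.18 FPKM in sham replicates 1 to 4 and 2.83, 1.59 and 1.54 in MI replicates 1 to 3. Only MI replicate 1 lay outside the sham range. Adamts9 had a log2 fold change of 0.05 (SE 0.170, limma adjusted p = 0.839), the exact permutation p was 0.8, and the change was 0.14 without MI replicate 2 and -0.15 without MI replicate 1. Median log-ratio scaling, quantile normalization and leaving out mitochondrial genes also turned its sign.

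MI replicates 1 and 3 are 2 single mice, and their levels are set side by side as a description. By the ratio of MI replicate 1 to MI replicate 3, Adamts15 stood at 3.63 (95% counting interval 3.29 to 4.02), Adamts4 at 3.43 (2.80 to 4.23), Adamts9 at 1.84 (1.67 to 2.04) and Adamts14 at 1.73 (1.46 to 2.06). For Adamts2, Adamts5 and Adamts12 the ratio was between 0.997 and 1.03, and for Adamts8 and Adamts1 it was 0.788 and 0.631. The intervals cover counting error only, not the spread between mice. MI replicate 1 also had more lymphocyte marker RNA, with 6 markers summing to 27.3 FPKM against 4.85 in MI replicate 3, 0.734 in MI replicate 2 and 0.566 to 0.681 in the sham-operated mice. Cd79a, a B cell gene, was at 16.9 FPKM in MI replicate 1 and 2.30 in MI replicate 3, and 5 neutrophil markers summed to 13.8 and 7.34 FPKM. The part of these cells in the Adamts4 and Adamts15 values was not tested.

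**Figure D4:**
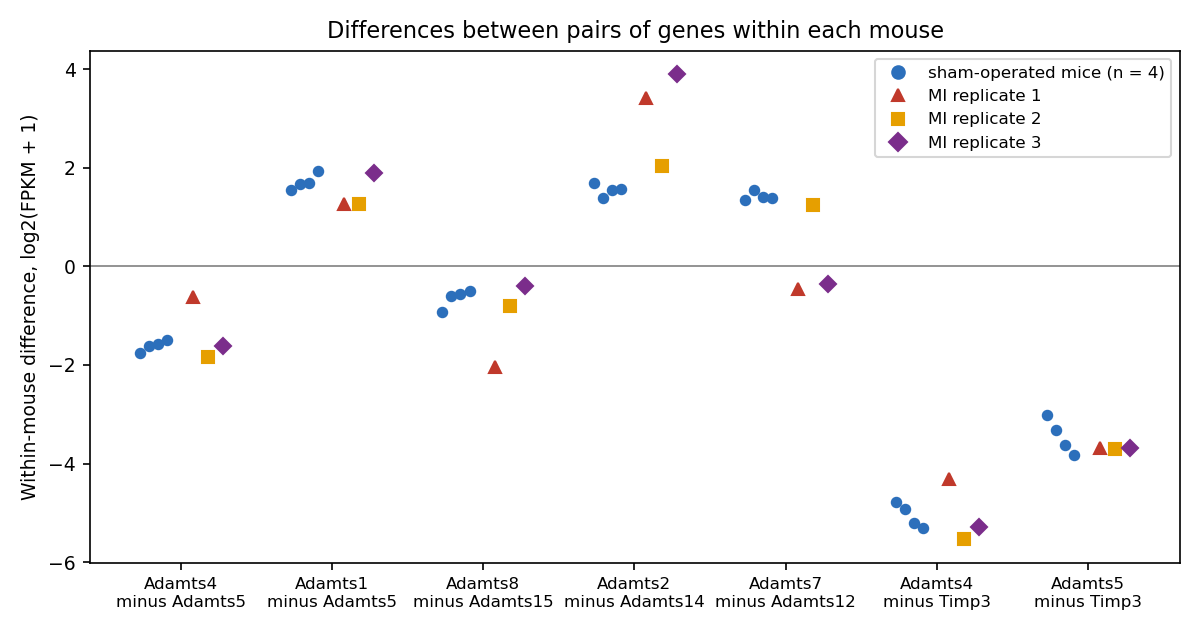
Within-mouse differences of log2(FPKM + 1) between 7 pairs of genes in the 4 sham-operated mice (circles) and MI replicates 1 to 3 (triangle, square, diamond). The groups do not overlap for Adamts2 minus Adamts14 and for Adamts7 minus Adamts12, and overlap for the other 5 pairs.

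Among the inhibitors, Timp3 was at 29.9 to 41.7 FPKM in the sham-operated mice and at 64.2, 48.0 and 63.8 in MI replicates 1 to 3, above every sham-operated mouse (log2 fold change 0.69, SE 0.164, limma adjusted p = 0.108, and 0.83 with an adjusted p of 0.00128 without MI replicate 2). Within each mouse the log2 difference of Adamts5 minus Timp3 was -3.69, -3.70 and -3.68 in MI replicates 1 to 3 and -3.82 to -3.01 in the sham-operated mice (change -0.25, exact permutation p = 0.4, adjusted over 7 pairs 0.7). That of Adamts4 minus Timp3 was -4.32, -5.54 and -5.29 in the MI mice (change 0.00, exact permutation p = 0.971), but with a pseudocount of 0.1 the change was 0.98 (exact permutation p = 0.4), and it was 0.25 without MI replicate 2 and -0.36 without MI replicate 1. Timp3 was thus the higher gene of both pairs in every mouse. Of the 7 inhibitor and clearance genes listed 6 passed the filter, 5 of them had an unadjusted limma p under 0.05, upwards, and 0 passed an adjusted one. Without MI replicate 2, 5 were higher and 1, Timp4, was lower at an adjusted p under 0.05. Lrp1, the clearance receptor, was at 8.33 to 9.11 FPKM in the sham-operated mice and at 34.0, 10.96 and 31.7 in the MI mice. Timp1, an inhibitor mainly of other metalloproteases, was at 0.723 to 1.199 FPKM against 112, 2.68 and 44.7. Timp4, abundant in heart, was the exception, at 5.48 to 9.48 FPKM in the sham-operated mice and at 2.70, 10.7 and 4.19 in the MI mice.

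Of 11 proteoglycan and matricellular substrates 10 were higher in both MI replicates 1 and 3 than in all sham-operated mice, and 5 passed the filter, each with an unadjusted limma p under 0.05 and none with an adjusted one, which all 5 passed without MI replicate 2. Vcan, which encodes versican, the main substrate of the proteoglycanases in heart, was at 0.860 to 0.933 FPKM in the sham-operated mice and at 6.25, 0.894 and 4.36 in MI replicates 1 to 3. Acan, encoding aggrecan, was under 1 FPKM in every mouse, at 0 to 0.0213 in the sham-operated mice and at 0.558, 0.00942 and 0.673 in MI replicates 1 to 3. The hyaluronan synthase genes Has1 and Has2, whose product binds versican, reached 2.82 and 2.03 FPKM in MI replicate 1, and Has1 was also above sham in MI replicate 2, at 0.651 against 0.0327 to 0.107. Of 6 genes for the maturation of ADAMTS proteins 5 passed the filter, and 3 of these had an unadjusted limma p under 0.05, with 5 at an adjusted one without MI replicate 2. Furin, which removes the propeptide, had a log2 fold change of 0.26 (SE 0.0911, limma adjusted p = 0.109, 0.33 without MI replicate 2), and Pofut2, which fucosylates the thrombospondin repeats, one of 0.86 (SE 0.322, limma adjusted p = 0.112, 1.21 without MI replicate 2).

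**Figure D5:**
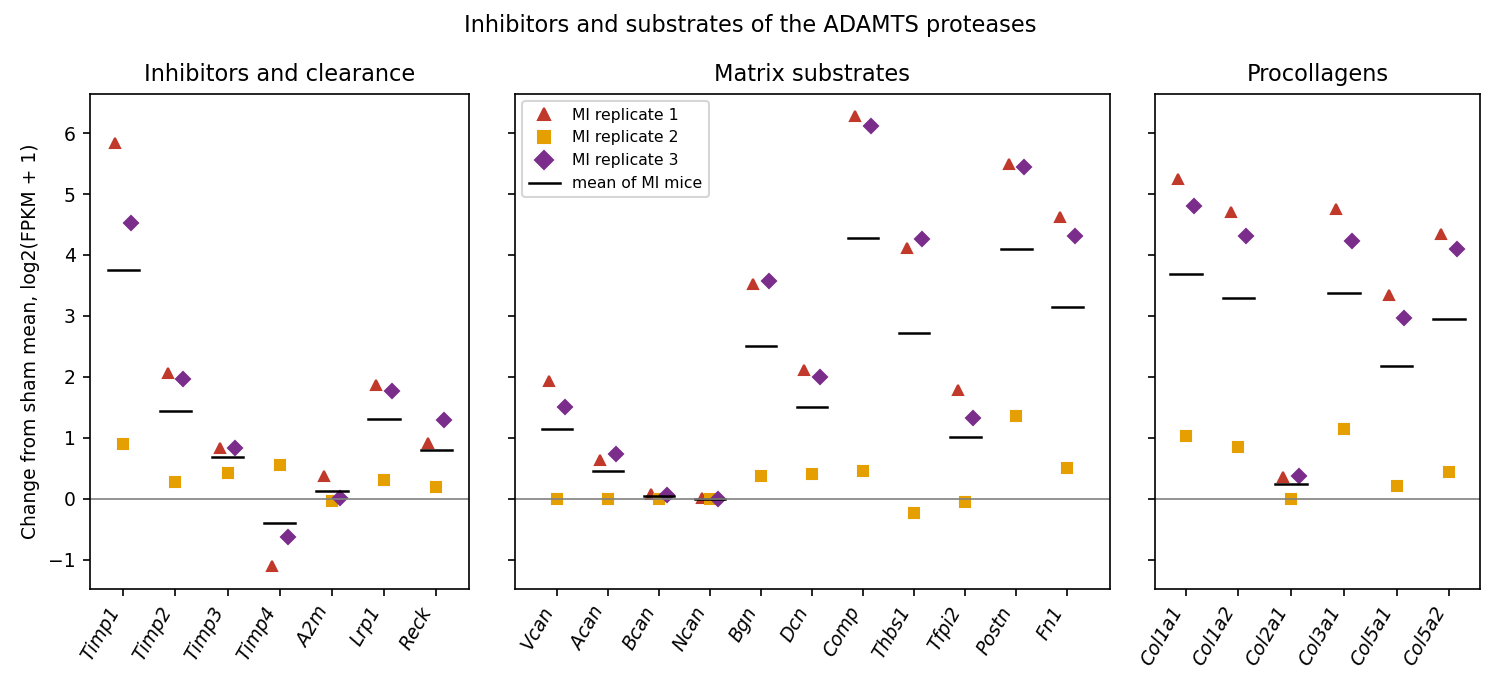
Change from the sham mean on the log2(FPKM + 1) scale for 7 inhibitor and clearance genes, 11 matrix substrates and 6 procollagens in MI replicates 1 to 3 (triangle, square, diamond), with the mean of the MI mice as a black line. Comp and Postn show the highest values in MI replicate 3, Comp and Timp1 in MI replicate 1, and Timp4 is below 0 in these and above 0 in MI replicate 2.

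Of the 9 other ADAMTS genes only Adamts10, which acts on fibrillin microfibrils, passed the filter. It measured 2.20 to 2.82 FPKM in the sham-operated mice and 11.6, 3.23 and 13.01 in the MI mice, without overlap (log2 fold change 1.36, SE 0.392, limma adjusted p = 0.108, and 1.91 without MI replicate 2). Adamts16 was near the limit of counting in the sham-operated mice, with 0, 0, 3 and 0 fragments, and had 127, 1 and 120 in the MI mice. Adamts20 also did not overlap between the groups, from 2 to 5 fragments in the sham-operated mice and 34, 9 and 38 in the MI mice. The median log2 fold change over these 9 genes was 0.14.

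Promoter sequences are shown for Adamts1, the highest member in the sham-operated heart, and for Adamts2 and Adamts12, the members without overlap between the groups. Each has 300 bases, 250 before and 50 after the start site, from RefSeq on GRCm38.p6, which held 5 of the 10 members, and capitals mark TATAAA and GGGCGG (or its reverse complement CCGCCC).
Adamts1: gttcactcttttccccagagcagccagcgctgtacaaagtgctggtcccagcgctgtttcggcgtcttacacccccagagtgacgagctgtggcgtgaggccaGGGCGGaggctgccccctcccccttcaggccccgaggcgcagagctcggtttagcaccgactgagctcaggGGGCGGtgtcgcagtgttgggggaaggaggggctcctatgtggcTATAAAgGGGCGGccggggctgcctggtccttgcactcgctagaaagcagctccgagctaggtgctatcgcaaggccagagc
Adamts2: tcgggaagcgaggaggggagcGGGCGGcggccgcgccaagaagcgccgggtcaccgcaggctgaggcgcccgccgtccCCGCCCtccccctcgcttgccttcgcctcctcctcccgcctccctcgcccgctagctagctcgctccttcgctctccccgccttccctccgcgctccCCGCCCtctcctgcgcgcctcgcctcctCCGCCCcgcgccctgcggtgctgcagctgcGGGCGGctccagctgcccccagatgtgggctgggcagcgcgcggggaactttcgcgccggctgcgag
Adamts12: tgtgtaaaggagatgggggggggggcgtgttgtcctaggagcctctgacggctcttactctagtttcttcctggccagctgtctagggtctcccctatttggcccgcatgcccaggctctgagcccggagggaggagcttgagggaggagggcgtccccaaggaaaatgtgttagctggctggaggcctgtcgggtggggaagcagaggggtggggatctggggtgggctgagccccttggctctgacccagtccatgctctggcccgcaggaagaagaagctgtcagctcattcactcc
These windows are chr16:85803064-85803363 (minus strand), chr11:50601835-50602134 (plus strand) and chr15:11064523-11064822 (plus strand). The Adamts1 window held 1 TATAAA, 32 bases before the start site, and 3 GGGCGG. The Adamts2 window held 5 GGGCGG and 77.3% G and C, and the Adamts12 window held neither motif and 62.0% G and C. Of 32851 promoters of the same length 13.6% held TATAAA and 35.7% held GGGCGG, with a median of 52.7% G and C. TGANTCA and CACGTG, searched on both strands like the others, were in none of the 3 windows and in 7.8% and 7.2% of all promoters. Adamts14 held 7 GGGCGG, some of them overlapping, and Adamts9 held 1.

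As a description of likeness over the 7 mice, the tested gene closest to Adamts2 by Pearson r on log2(FPKM + 1) was Itgbl1 (r = 0.9997), and 28.25% of the tested genes had an r above 0.95 with it. For Adamts5 the closest was Gm17251 (r = 0.996), for Adamts15 Fdxr (r = 0.993), for Adamts1 Errfi1 (r = 0.983), for Adamts7 Alpk2 (r = 0.972) and for Adamts9 Golga1 (r = 0.960). Adamts9 had 1 gene above 0.95 and Adamts1 had 16. The mice share 2 groups and a library that stands apart, so a high r is common among genes that were high in MI replicates 1 and 3.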

How the data were processed

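Values were taken per mouse for 4 sham-operated and 3 MI hearts, grouped by the treatment in the sample labels. The authors deposited FPKM, normalized by them for gene length and library size, for 56980 genes, with 0 value columns unused here. The submitters' processing notes name CASAVA 1.8, HISAT2, SAMtools 1.3.1, edgeR and the mm10 build without their roles, and the annotation, the counting program and the use of strand are not given in the sources used here. Identifiers were joined to gene symbols, which 52073 (91.4%) had. FPKM moved in whole steps, from which whole fragments (tolerance 0.05) were recovered for 30502 of 30504 genes above 0 (99.99%). These gave the depths and the exact 95% counting intervals, which cover counting error only.

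Values were analysed as log2(FPKM + 1) with limma 3.58.1 (lmFit and a trended eBayes, R 4.3.3), comparing MI with sham and using no covariate, two-sided, with Benjamini-Hochberg adjustment at 0.05 over the 11431 genes that reached an FPKM of 1 in 3 or more mice. Members under this filter were read from the same fit without it. Single genes and 7 pairs of genes were tested by exact two-sided permutation over the 35 splits, with the pairs adjusted by the same method. The labels do not say more than that the mice are separate samples, and p-values measure the spread between them. The zinc-binding site was found by translating the longest coding transcript of each member in GENCODE M21 and searching the metzincin zinc-binding pattern. The fit was tested on simulated data. Not every overlap of a member with another gene is reported here. The rest was done with SciPy 1.17.1, NumPy 2.4.6 and pandas 2.3.3 under Python 3.11.15, and plots with matplotlib 3.10.9.

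The members and all gene lists were chosen with earlier results of these data known. Named are all members, genes of the lists (substrates, inhibitors, maturation, other ADAMTS genes and cell markers) and the tested gene most like each tested member. Alternatives included leaving the filter out, a pseudocount of 0.1, other scalings, other limma settings, a replicate block and each mouse left out, and 1 was added after seeing the data.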

Additional observations from a re-analysis of the deposited data

Results flagged for a closer look

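Adamts2 in sham replicate 1 stood apart from the other sham-operated mice. Its 4.00 FPKM compared with 3.22 to 3.31 in the other 3, and its gap to the nearest of them was 0.890 of the whole range of the group, above Dixon's critical value for 4 samples. Of 17 sets of 4 values scanned this was the only one past that value, and chance gives about 1 in 20. The value still lay below the 5.32 FPKM of MI replicate 2, the lowest MI mouse.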

How the results depend on the processing

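Of 165 member values under the alternatives, 9 changed sign, those of Adamts1 and Adamts9. Adamts1 was -0.05 under both quantile normalization and scaling by the median log-ratio, and -0.08 to 0.45 with 1 mouse left out. Adamts9 was -0.19 with quantile normalization, -0.14 with median log-ratio scaling, -0.04 without mitochondrial genes, -0.15 with sample weights, and -0.15 to 0.15 with 1 mouse left out. Members higher at an adjusted p under 0.05 went from 0 to 4 with sample weights, where Adamts7 passed as lower (-0.20). With 1 mouse left out they numbered 0 to 4 (4 without MI replicate 2, against 57.0% of tested genes). With no filter and without MI replicate 2, an alternative chosen after seeing the data, it was 7, against 35.8%. The sample weights gave nearly all weight in the MI group to MI replicate 3, and their fit did not fully converge. Counts under these weights rest in effect on that mouse. At an unadjusted p under 0.05 the count went from 2 to 4 without the filter, 1 with quantile normalization, 4 with sample weights, 1 to 4 with 1 mouse left out (1 without MI replicate 1 or 3, 4 without MI replicate 2) and 8 with no filter and without MI replicate 2. Members with every MI mouse above every sham-operated mouse went from 2 to between 2 and 8 with 1 mouse left out. It was 8 without MI replicate 2, against 43.4% of the genes above 0, and 4 without sham replicate 1. For the alternatives without a share of all genes beside them, the counts cannot set the members apart from other genes. Pair differences with 1 mouse left out ran from -0.12 to 0.49 for Adamts4 minus Adamts5, from -0.78 to 0.05 for Adamts8 minus Adamts15, and from -0.36 to 0.25 for Adamts4 minus Timp3. With a pseudocount of 0.1 they were 1.11, -0.16 and 0.98. The cause of these shifts was not tested, and fewer mice entered only the fits that left a mouse out.

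With a replicate block the count at an unadjusted p under 0.05 was 1, without Adamts5. Deviations of same-numbered mice from their group means correlated at 0.074, -0.016 and -0.08. Because MI replicate 2 stood far from the other MI mice, these values cannot exclude a pairing by number.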
